A study of Mus musculus with 9 samples.

Results

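The difference in gene expression between an Hnrnpk hairpin arm and a control arm was not the same on day 6 of reprogramming as on day 12. With 1 library per arm and day, an effect of the hairpin cannot be told apart from a difference between cultures. The unit described here is that change: for each gene, the difference between the Hnrnpk hairpin arm and the control arm on day 12, minus the same difference on day 6. It was taken for the 12541 genes, of 12550 in the deposited table, whose mean signal over the 9 libraries was at least 20. The cells were C57Bl/6cJ mouse embryonic fibroblasts (MEFs) in culture, transfected with plasmids that express Oct4, Sox2, Klf4 and c-Myc and grown in serum-containing embryonic stem cell medium with LIF. Each arm also received a pretroSuper hairpin construct, against luciferase (a gene the cells lack) as the control or against hnRNP-K. RNA was collected on days 6, 9 and 12, which gives 6 libraries, and a lincRNA-p21 hairpin arm gives the other 3 of the 9 in the series. All arms therefore share the strain, the factors and the medium, and each held whole cultures of partly reprogrammed cells with no sort named in the labels.

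Hnrnpk encodes a protein with KH domains that binds cytosine-rich RNA and DNA, takes part in splicing, translation and transcription, and acts with p53 and with the long non-coding RNA lincRNA-p21 (Trp53cor1) in silencing genes. Reprogramming passes from fast division and loss of fibroblast genes through an epithelial stage to the activation of the cell's own pluripotency genes, which happens late and in few cells. Genes of S phase and mitosis are switched on in waves by E2F factors and by the MuvB complexes with B-MYB and FOXM1, and go silent together when cells stop dividing. In bulk RNA such as this, fewer cells of a type and less RNA per cell cannot be told apart.

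Values are the deposited signal, and comparisons are on the scale log2(signal + 10), so a difference of 1 is 2-fold for a well expressed gene and understates the ratio of a gene near 0. Each arm and day has 1 library, which the labels call merged replicates, so no value below has a spread between replicates. The error of a change comes from a limma fit over all 9 libraries in which each arm had its own straight line over days and all arms shared 1 bend. Its p-values set the slope of an arm's line, or a difference between such slopes, against that error. The error reflects how far the arms depart from lines with a common bend, moderated over genes, and not how cultures vary.

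The hairpin's own target was lower in the Hnrnpk arm on all 3 days. Hnrnpk (ENSMUSG00000021546, chr13:58391142-58403343 on the minus strand, mm10) stood at 31243, 26944 and 23376 in the control on days 6, 9 and 12, and at 11349, 17016 and 12793 in the Hnrnpk arm. The Hnrnpk libraries were thus below every control library, by -1.46, -0.66 and -0.87 on the log2 scale, and the knockdown was deepest on day 6. That weakening from day 6 to day 12 was 0.59 (SE 0.33) and did not pass the test (adjusted p = 0.27). Its sign turned to -0.38 when the Hnrnpk day 6 library was left out. That fit extrapolates the arm's day 6 value from its days 9 and 12 and the shared bend. Trp53cor1, the lincRNA-p21 gene, was at 286.5, 237 and 250 in the control and at 131, 137 and 119.5 in the Hnrnpk arm. Its difference was -1.07 on day 6 and -1.01 on day 12, a change of 0.07 (SE 0.35, adjusted p = 0.91). The change turned to -0.74 without the control day 6 library, with the control's day 6 value extrapolated in the same way.

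Over all genes, the difference between the arms passed the test as higher by day 12 for 634 genes, 5.06% of those tested, and as lower by day 12 for 539 genes, 4.3% of those tested. A further look at size alone gave 730 genes (5.82%) whose difference went up by at least 2-fold and 641 (5.11%) whose difference went down as far, and the median change over all genes was -0.02. These calls rest on thin error: 2 residual degrees of freedom, 7.73 in total after limma's moderation, and a smallest adjusted p of 0.0167. With only the 6 control and Hnrnpk libraries, or with no bend in the fit, 0 genes passed in either direction, while 2668 and 1637 genes had an unadjusted p under 0.05, against 3814 in the fit reported. Leaving out the control day 6 library left 1 gene higher and 0 lower (2503 genes at an unadjusted p under 0.05), and leaving out the Hnrnpk day 6 library left 28 and 7. Leaving out any 1 of the 3 lincRNA-p21 libraries left 0 and 0, with 2662 to 2675 genes at an unadjusted p under 0.05. Without the control day 12 library 414 and 387 genes passed, without the control day 9 library 1415 and 1374, without the Hnrnpk day 9 library 1260 and 1250, and without limma's intensity trend 333 and 263. The sign of the change was the same in each of these fits for all 67 rule-named genes below that passed. Only the fits without a day 6 or day 12 library of the control or Hnrnpk arm could have turned it. In the others the change is by construction the same day 12 minus day 6 difference, so its sign was fixed in advance.

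**Figure D1:**
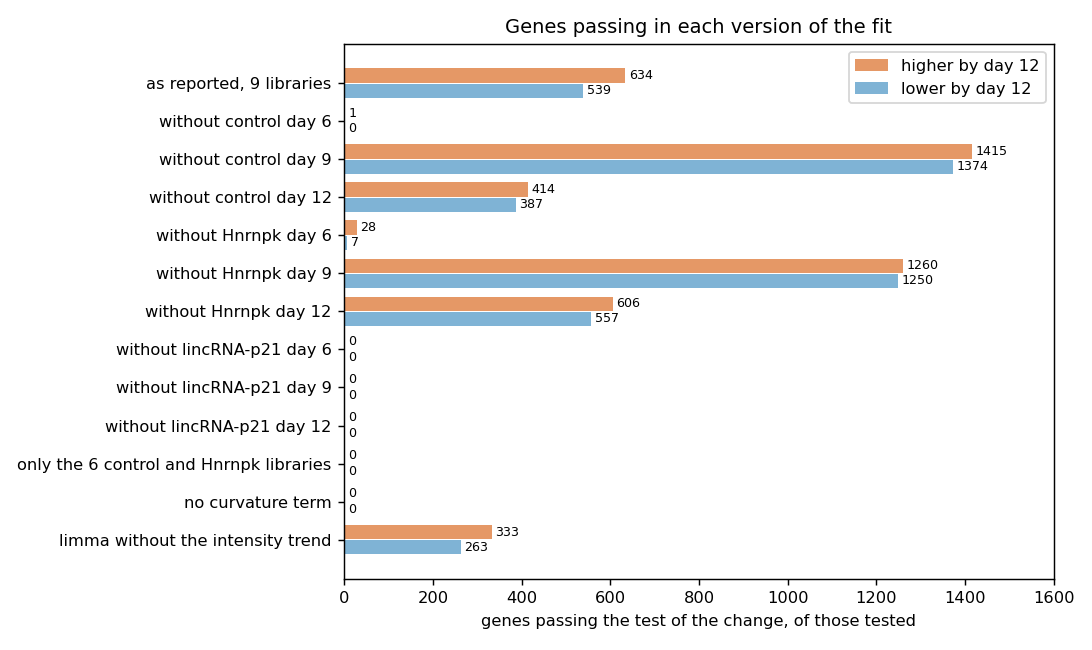
Number of genes (x axis) whose Hnrnpk minus control difference passed as higher (orange) or lower (blue) on day 12 than on day 6, for the fit reported and for fits that leave out 1 library or change 1 choice (y axis). The bars fall from 634 and 539 to 0 in 5 of the versions and rise to 1415 and 1374 without the control day 9 library.

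The most uniform change was in cell division genes, which were lower in the Hnrnpk arm than in the control on day 6 and higher on day 12. Of 30 mitosis genes measured, 26 passed as higher by day 12 and 0 as lower, and of 30 genes of G1/S and DNA replication 21 passed as higher and 0 as lower. The shares over all genes tested were 5.06% higher and 4.3% lower. All 30 members of each list had a positive change, with a median of 1.42 for mitosis and 1.25 for replication, beside -0.02 over all genes tested. On day 6, 30 of 30 mitosis genes and 30 of 30 replication genes were below the control, and on day 12, 30 and 27 were above it. Without the control or Hnrnpk day 6 library, or without any 1 lincRNA-p21 library, 0 members of either list passed.

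The start regions of some of these genes are shown because the windows of the mitosis list share short motifs. RefSeq windows from 250 bases before to 50 bases after a gene's start (GRCm38.p6, the mm10 assembly) were searched on both strands for TTTGAA, the cell cycle genes homology region (CHR) bound by MuvB complexes, for CCAAT, the box bound by NF-Y, and for TTCCCGC, an E2F site. These 3 motifs were chosen with the gene lists' changes known. Each window below runs from 170 bases before the start to 30 after, 5′ to 3′ on the gene's strand, with every match on either strand in capitals. Ccnb1 is shown as the mitosis member with the largest change, Ccnb2 and Cdk1 for holding both CHR and CCAAT, and Prim1 and Cdc6 for an E2F match; Ccnb2, Cdk1 and Cdc6 were picked after their values were seen.
Ccnb1 (chr13:100786457-100786656, minus strand): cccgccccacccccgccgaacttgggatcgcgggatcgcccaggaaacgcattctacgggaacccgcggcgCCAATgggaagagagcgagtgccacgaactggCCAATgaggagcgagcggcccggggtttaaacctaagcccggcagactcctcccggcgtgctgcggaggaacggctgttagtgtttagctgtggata
Ccnb2 (chr9:70421525-70421724, minus strand): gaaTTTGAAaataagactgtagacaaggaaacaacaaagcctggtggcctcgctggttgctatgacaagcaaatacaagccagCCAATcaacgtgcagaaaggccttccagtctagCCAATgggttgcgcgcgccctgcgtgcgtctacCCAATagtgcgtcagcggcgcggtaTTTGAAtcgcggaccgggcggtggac
Cdk1 (chr10:69352883-69353082, minus strand): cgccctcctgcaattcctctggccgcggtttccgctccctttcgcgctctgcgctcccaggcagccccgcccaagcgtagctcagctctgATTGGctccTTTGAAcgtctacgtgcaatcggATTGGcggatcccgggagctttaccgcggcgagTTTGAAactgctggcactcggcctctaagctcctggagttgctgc
Prim1 (chr10:128015045-128015244, plus strand): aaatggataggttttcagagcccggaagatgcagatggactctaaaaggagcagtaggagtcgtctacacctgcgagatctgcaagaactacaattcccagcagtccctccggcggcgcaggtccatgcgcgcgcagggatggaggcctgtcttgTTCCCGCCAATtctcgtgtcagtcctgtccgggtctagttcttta
Cdc6 (chr11:98907981-98908180, plus strand): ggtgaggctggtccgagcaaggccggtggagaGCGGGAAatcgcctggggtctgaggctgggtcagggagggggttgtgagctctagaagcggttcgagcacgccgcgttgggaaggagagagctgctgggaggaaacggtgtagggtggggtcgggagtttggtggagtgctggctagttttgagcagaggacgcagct

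In these windows Ccnb1 has 2 CCAAT matches and 0 of CHR, Ccnb2 has 3 CCAAT and 2 CHR, and Cdk1 has 2 and 2, read as ATTGG for CCAAT on its reverse strand. Prim1 has 1 E2F match that overlaps a CCAAT by 1 base, so that they read as 1 run of capitals, and Cdc6 has 1 E2F match on the reverse strand. Over the whole 300-base windows, 24 of the 30 mitosis genes matched the table with 25 windows, of which 76.0% held CHR, 84.0% CCAAT and 72.0% both. Over all 32851 windows of the table the shares were 17.9%, 37.4% and 6.95%, and over the 11960 windows of genes tested here 11.8%, 37.6% and 4.82%. For replication, 25 of 30 genes matched with 31 windows, of which 35.5% held the E2F letters and 61.3% CCAAT, beside 4.6% and 37.4% over all windows and 8.15% and 37.6% over those of genes tested. A match describes letters in a window and is not a measured binding site.

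Ccnb1, the cyclin that drives entry into mitosis (chr13:100778650-100786570 on the minus strand), had a signal of 2640, 3247.5 and 1950 in the control on days 6, 9 and 12 and 1748, 5629 and 6324 in the Hnrnpk arm. Its difference went from -0.59 to 0.79 and 1.69, a change of 2.28 (SE 0.21, adjusted p = 0.0167), and most of it came from the Hnrnpk arm, which rose by 1.85. The Hnrnpk library was the lower on day 6 and the higher on days 9 and 12. Ccnb2, its partner cyclin, stood at 1276.5, 1053.5 and 796.5 in the control and 761, 1514.5 and 1539.5 in the Hnrnpk arm. Cdk1, the kinase that these cyclins activate, stood at 2382.5, 2470 and 1659 against 1516, 3057 and 3038. In both genes the order of the arms turned between day 6 and day 9 in the same way, with changes of 1.68 and 1.52.

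In other members the control did most of the moving. Tpx2, a spindle assembly factor that activates Aurora A, fell from 5165 through 2836 to 1785.5 in the control and was at 2847, 3983 and 3853 in the Hnrnpk arm. Its change of 1.96 (SE 0.25, adjusted p = 0.0167) combines a control change of -1.53, which passed, with a Hnrnpk change of 0.44 that did not. Birc5, which encodes survivin of the chromosomal passenger complex, was at 1868, 1194 and 651 in the control and at 1172, 1833.5 and 1577 in the Hnrnpk arm, a change of 1.93. Ccna2, the cyclin of S and G2 phase, showed the control fall alone: 5726, 2330.5 and 1576 against 2984.5, 3400 and 2769. Its change was 1.75, of which the control gave -1.85 and the Hnrnpk arm -0.11.

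Across the mitosis list the control fell for 27 of 30 genes and rose for 0, with a median change of -0.89. The background for these counts is 20% of genes rising and 22.4% falling in the control arm. In the Hnrnpk arm 12 of the 30 rose and 1 fell, with a median of 0.43, beside 19.4% rising and 22.5% falling over all genes. The lincRNA-p21 arm lay between them, with a median change of 0.19. The turn of the mitosis genes thus combined a fall in the control with a smaller gain in the Hnrnpk arm. The median difference of -0.68 on day 6 had become 0.41 by day 9, and it reached 0.76 on day 12. The order of the arms had thus turned by day 9. The 4 members that did not pass had changes from 0.81 to 1.30, among them Mki67, the proliferation antigen, at 1.30 (adjusted p = 0.079); these 4 were picked for not passing.

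**Figure D2:**
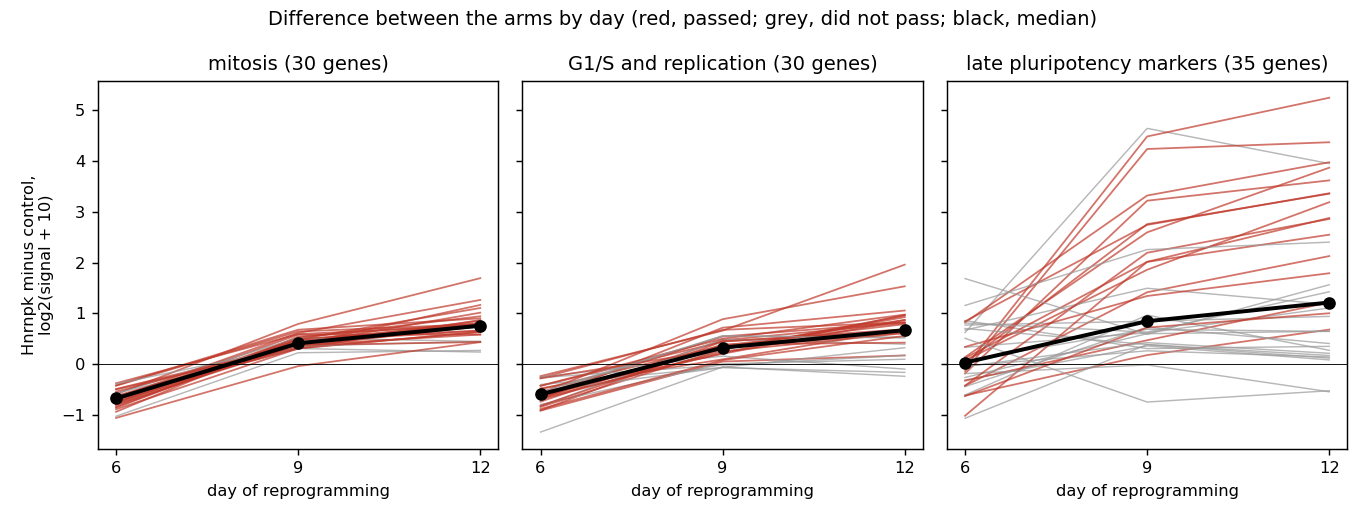
Hnrnpk minus control on the log2(signal + 10) scale (y axis) by day (x axis), 1 line per gene for 3 lists, red for genes whose change passed, grey for those that did not, and black for the median. All 30 mitosis lines start below 0 on day 6 and end above 0 on day 12, while the late pluripotency lines start on both sides of 0 and spread upward.

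Replication genes followed the same course. Gins1, a subunit of the replicative helicase, was at 1462.5, 1684.5 and 1047 in the control and 1240, 2665 and 4097.5 in the Hnrnpk arm, a change of 2.19 (SE 0.34, adjusted p = 0.0196) that came mostly from the Hnrnpk arm. Orc1, the origin recognition subunit that is made new in each cycle, went from 360 through 256 to 185.5 in the control and from 239 through 481 to 555.5 in the Hnrnpk arm. Here both arms moved, by -0.92 and 1.18, and both movements passed. Prim1, the DNA primase subunit, was at 688, 655 and 358.5 against 379, 803.5 and 704.5, a change of 1.80. Mcm5, of the MCM helicase ring, was at 4415, 3344 and 2126.5 against 2721.5, 5505 and 4429.5, a change of 1.75. Over the list the control fell for 23 of 30 genes and rose for 0, and the Hnrnpk arm rose for 13 and fell for 1. The shares over all genes were 20% rising and 22.4% falling in the control and 19.4% and 22.5% in the Hnrnpk arm. The median difference of the list was -0.60, 0.32 and 0.67 on the 3 days.

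Late pluripotency genes changed in another way: their median difference between the arms was small on day 6, and more of them rose in the Hnrnpk arm than in the control. Of 35 measured, 16 passed as higher by day 12 and 0 as lower, beside 5.06% and 4.3% of all genes, with a median change of 1.25. The list's median difference started at 0.03 on day 6 and reached 0.84 by day 9 and 1.21 by day 12. In the control 15 of the 35 rose and 2 fell, and in the Hnrnpk arm 28 rose and 1 fell. Over all genes 20% rose and 22.4% fell in the control, and 19.4% rose and 22.5% fell in the Hnrnpk arm. The list's median change within an arm was 0.72 in the control, 1.79 in the Hnrnpk arm and 1.70 in the lincRNA-p21 arm. The count of 16 was 11 without the control day 12 library and 0 without either day 6 library or any 1 lincRNA-p21 library.

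Dppa5a, an RNA-binding protein of pluripotent cells (chr9:78367052-78368177 on the minus strand), was at 1, 10 and 44 in the control and at 0.5, 437 and 2037.5 in the Hnrnpk arm. The arms were both near 0 on day 6 and far apart on day 12, a change of 5.31 (SE 0.97, adjusted p = 0.0241), the largest of the genes named here. Lin28a, which blocks let-7 maturation, was at 1, 21 and 57 against 0, 574 and 1374, a change of 4.51. Both genes rose in the control too, by 2.30 and 2.61, so the arms differed in how far the genes rose. Near-identical copies of Dppa5a exist in the genome, and the sources used here do not say how reads were split between them.

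The de novo DNA methyltransferase Dnmt3b was at 313, 191.5 and 186 in the control and 274.5, 1864.5 and 2395.5 in the Hnrnpk arm, a change of 3.80 (SE 0.68, adjusted p = 0.0236). The change passed in the Hnrnpk arm and not in the control, and most of the gap was there on day 9. Its cofactor Dnmt3l was at 0, 2.5 and 10 against 1, 65.5 and 282, a change of 3.73. Nanog, a core pluripotency factor (chr6:122707489-122714633), was at 179.5, 238 and 211 in the control, with no passing change, and at 143, 549.5 and 893 in the Hnrnpk arm. Its change of 2.34 (SE 0.26, adjusted p = 0.0167) came from the Hnrnpk arm. Of 15 core pluripotency genes 3 passed as higher and 0 as lower, beside 5.06% and 4.3% of all genes. The 3 were Nanog, Otx2, a homeobox factor of primed cells and forebrain (2.60), and Mycn, a Myc family factor (3.53). The list's median change was 1.31, from 0.12 in the control and 1.43 in the Hnrnpk arm, and the lincRNA-p21 arm's median was 1.86.

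Of 35 genes of TGF-beta, BMP and Activin signalling 4 passed as higher and 4 as lower, beside 5.06% and 4.3% of all genes. In this list 27 changes were negative and the median was -0.33. The 4 higher were Tdgf1, Nodal, Lefty1 and Lefty2. Tdgf1, the Nodal co-receptor Cripto, was at 7, 157.5 and 204.5 in the control and 20, 1662 and 3362 in the Hnrnpk arm. Its change was 3.16, and the control itself rose by 3.66. The ligand Nodal was at 4.5, 6 and 7 against 16, 97 and 165, a change of 2.52. The feedback inhibitors Lefty1 and Lefty2, neighbouring genes of similar sequence whose reads may be shared, changed by 3.28 and 3.57. Lefty2 was at 32.5, 83.5 and 86 in the control and 11, 367.5 and 551.5 in the Hnrnpk arm, so it was the lower on day 6 and the higher from day 9.

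Other large gains on the Hnrnpk side were in genes of varied roles. Car4, a membrane carbonic anhydrase, was at 0.5, 6.5 and 13 in the control and 1, 65 and 886.5 in the Hnrnpk arm, a change of 5.22 (SE 0.57, adjusted p = 0.0167). Unlike Dnmt3b, its gain was larger from day 9 to day 12 than before. Slc5a5, the sodium iodide symporter, was at 5.5, 2.5 and 5.5 against 4, 101.5 and 274, a change of 4.34 from the Hnrnpk arm alone. Gng3, a G protein gamma subunit, was at 20, 23 and 14 against 10, 105 and 225.5, a change of 3.88. Mageb16, of the MAGE family, was at 27, 19 and 32.5 against 4, 84 and 210, a change of 3.77 that took it from below the control to above. Nnat, the imprinted gene for neuronatin (chr2:157560078-157562522), moved in opposite ways: it fell from 324.5 through 128 to 63 in the control and rose from 234 through 611 to 723 in the Hnrnpk arm. Its change was 3.78 (SE 0.41, adjusted p = 0.0167), and it was the 1 gene that passed as higher with both arms moving at least 2-fold in opposite ways.

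**Figure D3:**
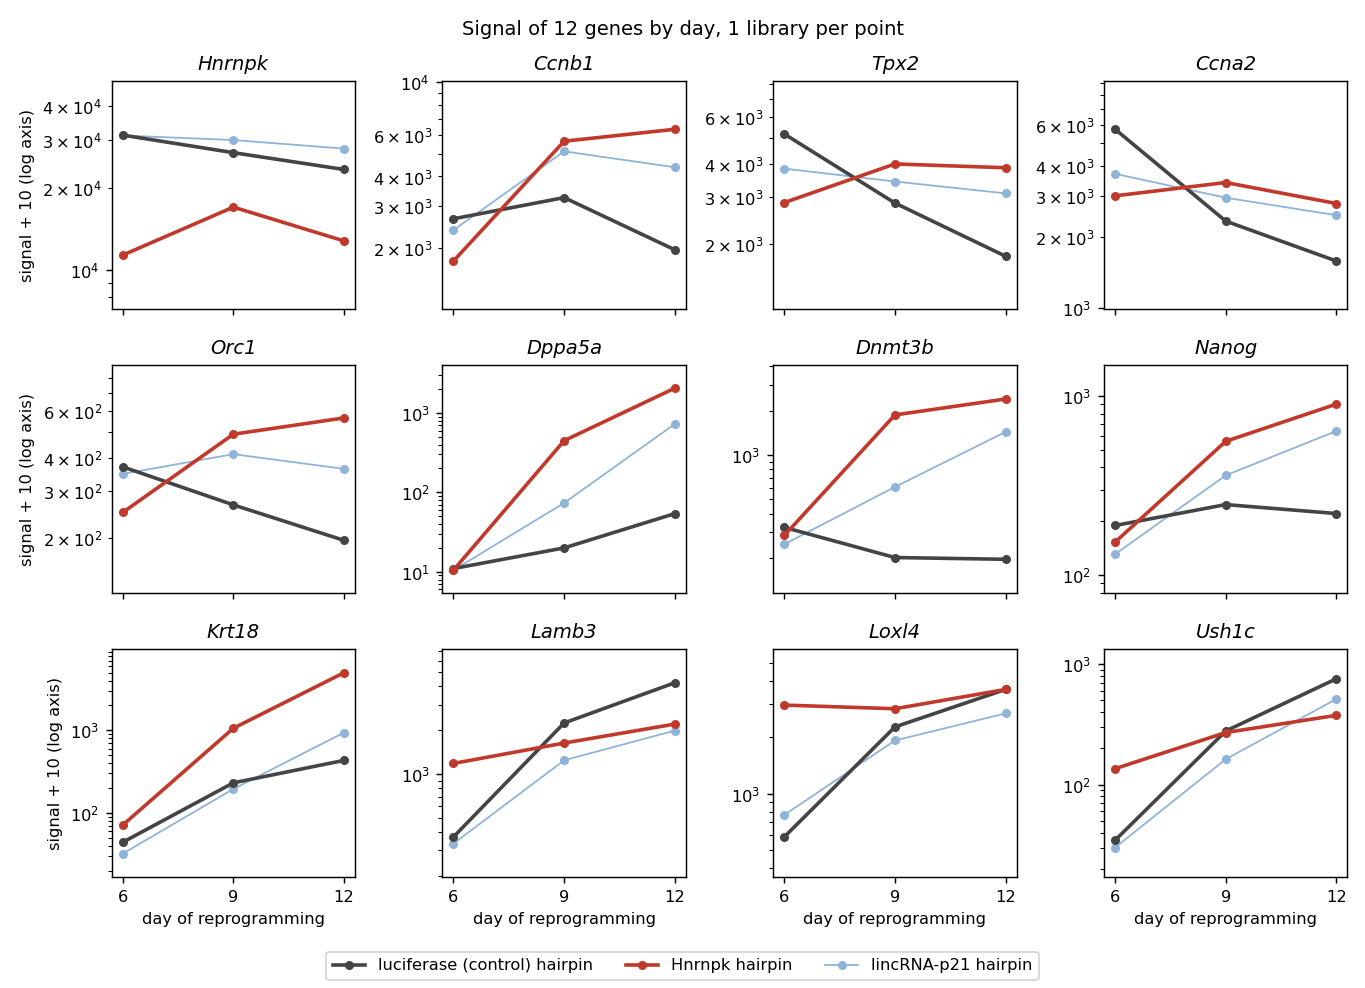
Signal plus 10 on a log axis (y) by day (x) for 12 genes, with 1 library per point, in the control (dark grey), Hnrnpk (red) and lincRNA-p21 (light blue) arms. The lines of Ccnb1, Tpx2, Ccna2, Orc1, Lamb3 and Ush1c cross between day 6 and day 12, Dppa5a and Nanog open from near equality, and those of Loxl4 close from 576 against 2959 to 3590 against 3589.5.

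Genes whose difference was lower by day 12 were mostly ones that the control gained. Among the 539 that passed, the control itself rose for 353 and fell for 19, and the Hnrnpk arm fell for 245 and rose for 72. The median change was 0.70 in the control and -0.41 in the Hnrnpk arm. The size of the movement was larger in the control for 326 of the 539. Among the 634 that passed as higher, the control fell for 353 and rose for 46, the Hnrnpk arm rose for 378 and fell for 18, and the medians were -0.59 and 0.60. These splits describe the genes chosen by the test and are no further test of them.

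Lamb3, the laminin beta chain of epithelial basement membrane (chr1:193207699-193343878), rose from 359.5 through 2231.5 to 4223 in the control and went from 1171.5 through 1621.5 to 2192 in the Hnrnpk arm. The Hnrnpk library was the higher on day 6 and the lower on days 9 and 12, a change of -2.62 (SE 0.40, adjusted p = 0.0196). Ush1c, the scaffold harmonin of epithelial microvilli and hair cells, was at 24.5, 268.5 and 745.5 against 125.5, 260.5 and 365.5, a change of -2.98. Edn2, the peptide endothelin-2, was at 16, 164.5 and 296.5 against 49, 85 and 93.5, a change of -2.75. In these 3 genes the Hnrnpk arm started ahead and gained less, and the control had overtaken it by day 12.

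Loxl4, a lysyl oxidase that crosslinks collagen, was at 576, 2259 and 3590 in the control and at 2959, 2828 and 3589.5 in the Hnrnpk arm. The Hnrnpk arm thus stood on day 6 near the level that the control reached on day 12, and the change was -2.34 (SE 0.41, adjusted p = 0.0236). Akr1c14, an aldo-keto reductase of steroids, was alike, at 270.5, 1158 and 1672 against 1279, 1147 and 1532, a change of -2.33. Hbegf, an EGF receptor ligand, was at 330, 492 and 952 against 1392, 929 and 1213, a change of -1.70. In each of them the day 6 gap narrowed or closed as the control rose, and the Hnrnpk arm's own change did not pass.

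Others opened a gap on the control side. Hgfac, a protease that activates hepatocyte growth factor, was at 4, 62 and 207 in the control and 3, 14 and 24 in the Hnrnpk arm, a change of -2.57. Slc5a8, a monocarboxylate transporter, was at 47, 110 and 283 against 100, 69 and 94, a change of -2.44. Ppfia4, a liprin scaffold protein, was at 319.5, 884 and 1539 against 489, 323 and 455.5, a change of -2.33. Itgb7, an integrin beta subunit, was at 24, 67.5 and 257 against 58, 106.5 and 87, a change of -2.46. In these 4 genes the Hnrnpk library was below the control on day 12, and in all but Hgfac it was above it on day 6. Prl2c3, a placental prolactin family member with near-identical copies, gave the lowest change of the genes named here, -3.21, at 0, 20 and 167 in the control and 97.5, 121 and 195 in the Hnrnpk arm.

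A smaller number fell in the Hnrnpk arm from a high day 6 value. Elmod1, which has an ELMO domain, was at 128, 74 and 99.5 in the control and 1251, 279.5 and 267 in the Hnrnpk arm, a change of -1.85 (SE 0.32, adjusted p = 0.0236) that left it above the control on all 3 days. Tmie, a part of the hair cell transduction channel, was at 31, 36 and 51 against 291, 105.5 and 81, a change of -2.30. Nefm, a neurofilament subunit, was at 65.5, 43.5 and 42 against 564, 186 and 142, a change of -1.38. It was the 1 member of 14 neural genes to pass in either direction, beside 5.06% of all genes higher and 4.3% lower. Within that list 9 changes were positive and 5 negative, with a median of 0.12. In Elmod1, Tmie and Nefm the Hnrnpk arm was 2-fold or more above the control on day 6 and came down. Cryab, a small heat shock protein, was at 7579, 8181.5 and 9592.5 against 62250, 10332.5 and 14101, and its change of -2.48 did not pass (adjusted p = 0.052). Btn1a1, butyrophilin, moved in opposite ways, at 82, 103 and 177 against 189.5, 79.5 and 79.5, a change of -2.18.

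Seen arm by arm, 5317 genes passed as changed from day 6 to day 12 in the control and 5251 in the Hnrnpk arm, and 2116 and 2060 of all genes moved by at least 2-fold. The counts per arm also lean on single libraries: 405 rose and 164 fell in the control without its day 6 library, and 1415 and 1398 without its day 12 library. In the Hnrnpk arm 678 rose and 427 fell without its day 6 library and 837 and 858 without its day 12 library. Without any 1 lincRNA-p21 library, 1819 to 1840 genes fell in the control and 1811 to 1843 in the Hnrnpk arm. With no bend in the fit 722 rose and 529 fell in the control and 189 and 85 in the Hnrnpk arm. Of the 634 genes whose difference passed as higher, 158 moved at least 2-fold in the control only, 148 in the Hnrnpk arm only, 38 in both the same way, 1 in both in opposite ways and 289 in neither. Of the 539 lower, the counts were 159, 96, 38, 2 and 244. Among genes named by the rule, the largest passing change toward higher in the control-only class was in Cited1, a CBP/p300 coactivator partner. Cited1 fell from 739 through 254 to 120 in the control and stood at 241.5, 254.5 and 230 in the Hnrnpk arm, a change of 2.46 (SE 0.31, adjusted p = 0.0167). On day 6 the Hnrnpk arm stood near the control's day 9 level.

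**Figure D4:**
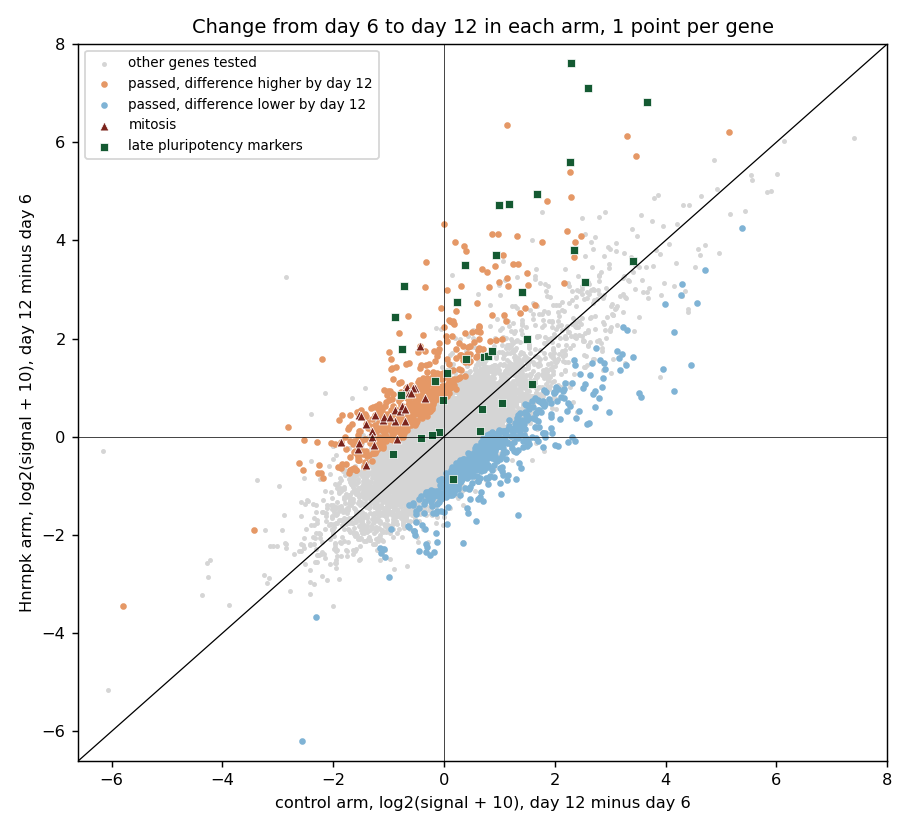
Change of log2(signal + 10) from day 6 to day 12 in the control arm (x axis) and in the Hnrnpk arm (y axis), 1 point per gene, with genes that passed in orange (634) and blue (539), mitosis genes as dark triangles and late pluripotency genes as green squares. On the diagonal line both arms changed alike; the triangles lie above it and mostly left of 0, and most squares lie above it and above 0.

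Most genes 2-fold apart on day 6 were no longer so on day 12, yet more of them kept their side than the share over all genes. On day 6, 830 genes (6.62%) differed by at least 2-fold between the 2 libraries, 569 higher and 261 lower with the Hnrnpk hairpin. On day 9 there were 485 (3.87%), 318 higher and 167 lower, and on day 12 there were 781 (6.23%), 472 higher and 309 lower. These counts have no replicate check, and adding 50 in place of 10 before the log gave 489, 238 and 475. Of the day 6 genes 612 had faded below 2-fold by day 12, 204 kept their side and 14 turned to the other side, while 563 appeared between day 6 and day 12. The 204 kept genes are 24.6% of the day 6 genes, beside 6.23% of all genes 2-fold apart either way on day 12. They are 26.1% of the day 12 genes, beside 6.62% of all genes 2-fold apart either way on day 6. The day 6 and day 12 comparisons share no library. Of the changes in these classes, 223 of the appeared, 167 of the faded, 5 of the kept and 11 of the turned genes passed the test.

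Krt5, a keratin of basal epithelial cells, was one that kept its side and widened: 8, 74.5 and 55 in the control and 39.5, 804 and 1368.5 in the Hnrnpk arm, a change of 2.95 (SE 0.35, adjusted p = 0.0167). Pou3f1, a POU factor of primed cells, turned, from 96 against 42 on day 6 to 50 against 215.5 on day 12, a change of 2.94. The larger part of the median shift came between day 6 and day 9. Among those higher by day 12 the median step was 0.74 from day 6 to day 9 and 0.50 from day 9 to day 12, and among those lower it was -0.68 and -0.45. The day 9 difference lay between those of day 6 and day 12 for 633 of the 634 and 537 of the 539, against 50.4% of all genes. The fit favours genes that run in a line, so this share follows from the test.

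The epithelial and epidermal lists had calls in both directions. Of 41 genes of epithelial junctions 3 passed as higher and 5 as lower by day 12, with a median change of -0.04, and of 31 keratinocyte genes 3 and 5 passed, with a median of -0.18. Over all genes 5.06% passed as higher and 4.3% as lower. The counts in these lists are small, and the lists were not tested as sets. Krt18, a keratin of simple epithelia, was at 34, 221 and 422 in the control and 61, 1048.5 and 4980 in the Hnrnpk arm, a change of 2.84 (SE 0.38, adjusted p = 0.018). Cldn6, a claudin of embryonic epithelium, changed by 3.11, and Krtdap, a keratinocyte differentiation peptide, by 2.24. On the other side Tgm3, a transglutaminase of the cornified envelope, was at 309, 1515.5 and 3364 against 307, 803.5 and 966.5, a change of -1.78, and Perp, a p53 target of desmosomes, changed by -1.28. Both arms gained most members of both lists: in the control 38 of 41 and 27 of 31 rose, and in the Hnrnpk arm 36 and 26, with none falling in either arm. Beside these stand 20% of all genes rising and 22.4% falling in the control and 19.4% and 22.5% in the Hnrnpk arm. Of the genes named here, Krt18, Cldn6 and Tgm3 rose in both arms, Perp passed as rising in the control only and Krtdap in the Hnrnpk arm only.

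**Figure D5:**
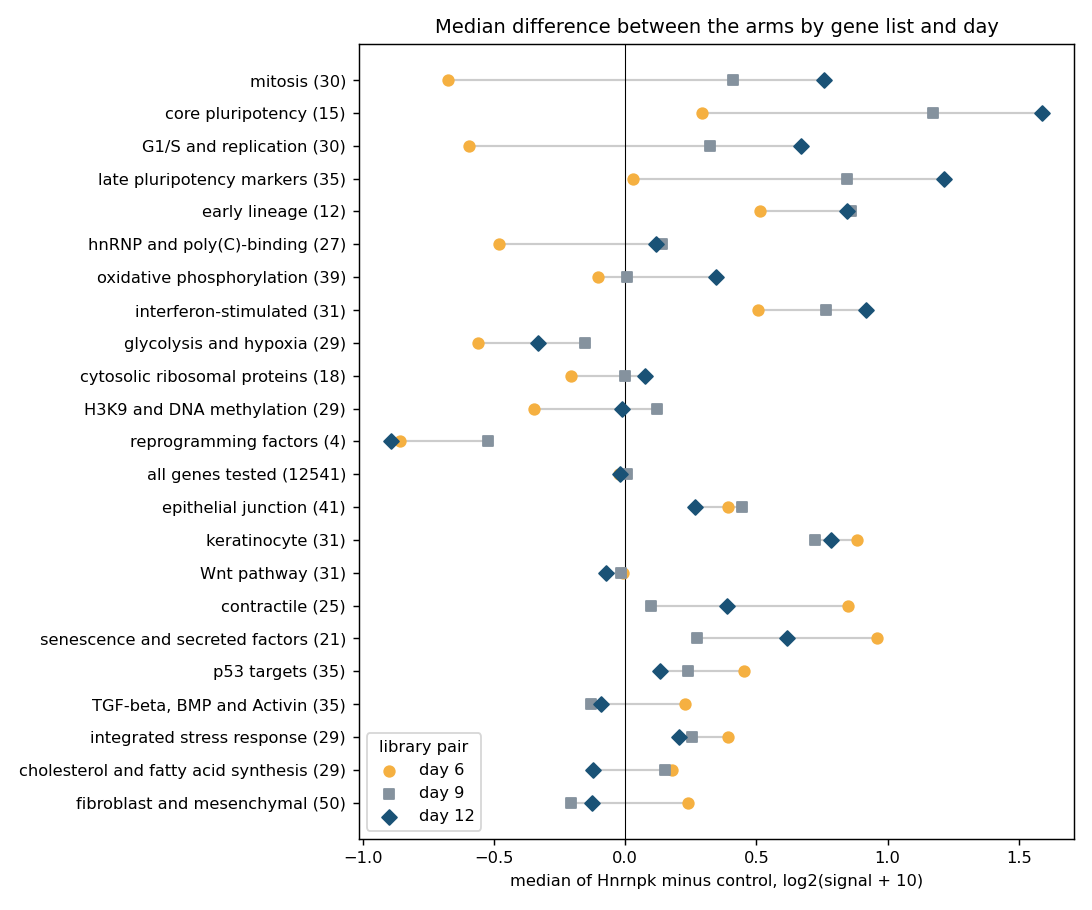
Median Hnrnpk minus control difference on the log2(signal + 10) scale (x axis) for each gene list with its number of genes (y axis), on day 6 (circle), day 9 (square) and day 12 (diamond), ordered by the median change. The mitosis medians run from -0.68 to 0.76, while those of all genes stay near 0.

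Lists with mostly positive changes and fewer calls than the cell division lists came next. Their counts stand beside 5.06% of all genes passing as higher and 4.3% as lower. Of 39 genes of oxidative phosphorylation 36 had a positive change, 5 passed as higher and 0 as lower, and the median was 0.53. Among them Cycs, cytochrome c, was at 3379.5, 2491 and 1344 in the control and 2957.5, 3731 and 4444.5 in the Hnrnpk arm, a change of 1.91, and Ndufa1 and Cox6c, subunits of complexes I and IV, changed by 1.57 and 1.09. Of 27 genes for hnRNP and poly(C)-binding proteins, the family of the hairpin's target, 23 had a positive change and 2 passed as higher and 0 as lower, with a median of 0.59. Hnrnph3, a splicing regulator, changed by 1.18 and passed, and Hnrnpa1, the abundant splicing repressor, by 1.48 and did not (adjusted p = 0.065). Of 29 genes of H3K9 and DNA methylation 5 passed as higher and 0 as lower, with a median of 0.36; besides Dnmt3b and Dnmt3l they included Suv39h2, an H3K9 methyltransferase, at 1.43.

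Of 31 interferon-stimulated genes 3 passed as higher and 0 as lower, beside 5.06% and 4.3% of all genes. On day 6, 4 of the 31 were below the control, and 5 of the changes were negative. The median difference was 0.51, 0.76 and 0.92 on the 3 days. Oasl2, an OAS-like antiviral protein, was at 53, 43 and 49 in the control and 95.5, 163 and 353 in the Hnrnpk arm, a change of 1.88 (SE 0.34, adjusted p = 0.0236). Gbp2, an interferon-induced GTPase, was at 49, 93 and 104 against 114, 529.5 and 642, and its change of 1.44 did not pass (adjusted p = 0.052). Of 12 early lineage genes 3 passed as higher and 0 as lower, among them Fgf5, a growth factor of the epiblast, at 4.5, 8.5 and 8 against 12, 52 and 175. Of 29 genes of glycolysis and hypoxia 2 passed as higher and 1 as lower; Pdk1, which holds pyruvate back from the mitochondria, was at 3791, 6852.5 and 8050 against 949.5, 4445 and 5331.5, so its deficit narrowed by 1.39. Of 18 cytosolic ribosomal protein genes 2 passed as higher and 0 as lower.

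Lists on the lower side had small medians. Their counts stand beside 5.06% of all genes passing as higher and 4.3% as lower. Of 35 p53 targets 0 passed as higher and 4 as lower, with a median of -0.31; Epha2, an ephrin receptor, and Rrm2b, the p53-induced ribonucleotide reductase subunit, changed by -1.06 and -0.92. Of 29 genes of the integrated stress response 1 passed as higher and 4 as lower, with a median of -0.40. In that list Nupr1, a stress-induced nuclear protein, was at 1312.5, 1836 and 3838 against 5805, 2838 and 5263.5, a change of -1.68. Cebpb, a bZIP factor of stress and differentiation, was at 1165, 717.5 and 914.5 against 1599, 398.5 and 426, a change of -1.54, and Aldh1l2, of mitochondrial folate metabolism, changed by -1.51. Nupr1 narrowed its gap as the control rose, and Cebpb fell in the Hnrnpk arm from above the control to below it.

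Of 29 genes of cholesterol and fatty acid synthesis 0 passed as higher and 2 as lower, with a median of -0.42. For this and the next lists, the shares over all genes were 5.06% higher and 4.3% lower. Of 21 senescence and secreted factors 1 passed as higher and 4 as lower; Mmp3, a matrix protease, was the one higher (1.54), with a fall in the control and no passing change in the Hnrnpk arm. Of 50 fibroblast and mesenchymal genes 1 passed in each direction: Igfbp5, an IGF-binding protein, at 1.29, and Col6a1, a collagen VI chain, at -1.39. In that list 36 of 50 changes were negative, and the control fell for 16 genes and the Hnrnpk arm for 28. Over all genes 22.4% fell in the control and 22.5% in the Hnrnpk arm. Of 25 contractile genes Mylpf, a skeletal myosin light chain, passed as higher (2.95) and Actg2, a smooth muscle actin, and Ctgf, a YAP target, as lower (-1.61 and -1.60). Of 31 Wnt genes Tcf7, a Wnt effector, passed as higher (1.55) and 0 as lower. The 4 reprogramming factors, whose plasmid and endogenous RNA cannot be told apart here, gave 0 calls in either direction, with changes from -0.41 to 0.23. All 4 were below the control on day 6, and 0 were above it on day 9 or day 12. Their high values include exact ties, such as Pou5f1 at 44876 in all arms on day 9, which limits the differences that can be seen.

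Sums of cell type markers differed between the arms to unlike extents, and their part in these changes was not tested. A raw sum weighs its most abundant members most. The 6 pluripotent cell markers summed to 202.5, 370 and 474.5 in the control on days 6, 9 and 12 and to 184, 2564.5 and 5911.5 in the Hnrnpk arm, with 1 of them, Lin28a, at 0 in a library (Hnrnpk day 6). The 7 keratinocyte markers measured, of 9, summed to 630.5, 2501.5 and 2445.5 against 1015.5, 3949.5 and 6354.5; Trp63 and Krt15 are not in the table. The 7 fibroblast markers, which check the MEF label, summed to 163891, 180760 and 172134 against 200066, 106382 and 140996. Of 8 macrophage markers 2 were measured, of 6 endothelial 1, of 6 muscle 4, of 5 adipocyte 1 and of 7 neural 6. The neural sum was 30927, 19412 and 13824.5 in the control against 23451, 13858.5 and 19205.5, and the macrophage sum 1927, 2775.5 and 2172 against 2354, 2892.5 and 4326.5. Among the 3 measured genes of the macrophage list 1 change was positive and 2 were negative, with a median of -0.39. The muscle sum was 295.5, 960.5 and 746.5 against 594, 488 and 1002, and the single endothelial and adipocyte markers stood at 2684 against 2240 and at 128.5 against 112 on day 12. In the lincRNA-p21 arm the pluripotent sum was 152, 931 and 3104.5, the keratinocyte sum 673.5, 2328 and 2575, the neural sum 46714.5, 17378 and 14405.5 and the macrophage sum 2196, 2069 and 2511. The pluripotent sum was thus alike in the control and Hnrnpk arms on day 6 and higher in the Hnrnpk arm after it, and the fibroblast sum was higher in the Hnrnpk arm on day 6 and lower after it.

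The day 6 to day 12 change of the Hnrnpk arm was also set against that of the lincRNA-p21 arm. With limma 0 genes passed in either direction (0.0%), 1815 had an unadjusted p under 0.05, and the smallest adjusted p was 0.24. Leaving out the Hnrnpk day 9 library gave 313 genes and leaving out the Hnrnpk day 12 library 113, and the other fits that leave out 1 library gave 0 to 16. Ccnb1 was at 2365, 5099 and 4367 with the lincRNA-p21 hairpin, Tpx2 at 3824, 3419 and 3085, and Dppa5a at 0.5, 63.5 and 715.5. On day 12 each of these 3 values lay between the control and the Hnrnpk arm. Both comparisons of the Hnrnpk arm share its libraries, and a count of 0 does not show that the 2 hairpins acted alike.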

How the data were processed

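Libraries of total RNA were made by standard Illumina protocols, per the labels. The build was mm10, and the tools listed were Bowtie 1.0.1 and RSEM 1.2.12, per the submitters' processing notes, which give no roles. The deposited signal moves in steps of 0.5, and its column totals differ by 0.025% with 1 shared maximum of 118715, so a common scale was set by the authors by steps not given in the sources used here. High values also repeat exactly: Pou5f1 was at 44876 in all arms on day 9, and Klf4 and Myc were both at 56808.5 in the control on day 6. A median change near 0 over all genes is thus at least partly set by the scale. Depth is unknown, and the number of merged replicates is not stated.

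Genes with a mean of at least 20 were kept, 10 was added and log2 taken. R 4.3.3 with limma 3.58.1 fitted, over 9 libraries, a level and a day slope for each of 3 arms and 1 shared curvature (7 coefficients), with an intensity trend and Benjamini-Hochberg adjustment at 0.05 over 12541 genes. The calculation was checked on data simulated from the fit's own lines and shared curvature with independent normal noise. Such data cannot test whether the arms share a curvature. Alternatives were the pseudocount, the filter, the scaling, the fit and leaving out each library. Genes named were Hnrnpk and Trp53cor1, the 8 largest passing changes each way, the 10 largest each way with day 9 between, the 3 largest of each class by arm moved and by course, and up to 4 per list, all but the targets and list members with a highest value of at least 100. Pseudogenes, small RNAs and genes known by clone or model number were counted only, and some genes the rule names are not printed. Members and lists were chosen with earlier results of these data known.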

Additional observations from a re-analysis of the deposited data

Results flagged for a closer look

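For 7 genes named above the Hnrnpk minus control difference was at least 2-fold in one direction on day 6 and at least 2-fold in the other on day 12, and the change itself passed limma's test. The day 12 minus day 6 change on the log2(signal + 10) scale was 3.77 for Mageb16, 3.57 for Lefty2 and 2.94 for Pou3f1, which went from below the control to above it. It was -2.18 for Btn1a1, -2.46 for Itgb7, -2.75 for Edn2 and -2.98 for Ush1c, which went from above to below. Each rests on 4 single libraries, and none of the 7 passed when the control day 6 library was left out.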

How the results depend on the processing

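Each arm and day has 1 library, so leaving out a library leaves 1 residual degree of freedom. No paired analysis was possible because each arm and day has 1 library and the labels number no replicates. Over the 9 fits that leave out 1 library, the genes passing as higher ranged from 0 to 1415 and as lower from 0 to 1374, those of mitosis from 0 to 30, of replication from 0 to 27 and of late pluripotency from 0 to 23. In the control arm the genes rising ranged from 405 to 3035 and falling from 164 to 3427, and in the Hnrnpk arm from 678 to 2967 and from 427 to 3402. Hnrnpk's change ranged from -0.38 to 1.57 and that of Trp53cor1 from -0.74 to 0.87, where a left-out day 6 or day 12 library makes that day an extrapolation. With only the 6 control and Hnrnpk libraries, and with no curvature, 0 genes passed in either direction, and 0 of each of those 3 lists. With no curvature 722 genes rose and 529 fell in the control and 189 and 85 in the Hnrnpk arm. Without the intensity trend 333 and 263 genes passed, 16 of them mitosis genes. Adding 50 gave 489, 238 and 475 genes at least 2-fold apart on days 6, 9 and 12, and a mean of at least 100 gave 298 on day 9. The cause of these shifts was not tested, beyond the smaller number of libraries. Over the 19 alternatives the median change ran from 0.80 to 1.99 for mitosis, 0.74 to 1.85 for replication and 0.62 to 2.23 for late pluripotency, and from -0.05 to 0.01 for all genes. Depth is unknown, so counting error could not be given.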
